A study of Drosophila melanogaster with 4 samples.

Results

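The region described here is a stretch of 190 kb on the X chromosome of Drosophila melanogaster, from 15.99 Mb to 16.18 Mb in FlyBase release 5, taken as the locus of the paralogous genes disco-r and disco. Its members are all deposited Psc clusters that overlap this stretch: 60 of 13747 clusters over 3 lists, made up of 14 of 2628 in ChIP replicate 1, 13 of 2432 in ChIP replicate 2 and 33 of 8687 in the combined list. The clusters come from chromatin immunoprecipitation and sequencing (ChIP-seq) of Psc in wild-type embryos of the strain Oregon-R, 14 to 16 h into development. The study had 2 Psc ChIP samples and 2 input samples, in which fragmented chromatin was sequenced without immunoprecipitation, and the input numbered like a ChIP sample was its reference. No mutation, transgene or treatment is named for any sample. Chromatin came from whole formaldehyde-fixed embryos of population cages, so all cell types were mixed, and more bound cells cannot be told apart from more Psc per cell. The labels do not say whether replicates 1 and 2 came from separate embryo collections.

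Psc (Posterior sex combs) is a subunit of Polycomb repressive complex 1, which keeps developmental genes silent in the cells that should not use them and can compact chromatin. In flies the complex is gathered at short DNA elements, the Polycomb response elements, and reaches from them, more weakly, over the surrounding gene. disco (disconnected) encodes a zinc finger transcription factor; it was named for larvae whose optic nerve fails to connect with the brain, and its mutants also lack pacemaker neurons of the circadian clock. disco-r (disco-related) encodes a similar zinc finger protein. Both genes act in the embryonic head, where they are needed together with the Hox proteins Deformed and Sex combs reduced to form the gnathal segments, and later in the legs.

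The gene table used here, RefSeq on release 6 of the genome, held both members, with disco-r at the lower coordinates, disco at the higher, and only the non-coding RNA gene lncRNA:CR46211 and the microRNA gene mir-985 between them. The cluster lists are on release 5. Placement of the genes in this stretch was therefore taken as given, and no cluster was assigned to a promoter, an exon or either gene. The clusters of this stretch were known when it was chosen, so their number, coverage and scores are a description and carry no test.

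Psc clusters covered close to the same amount of the locus in both replicates, with 2 sites far above the rest. They took up 36.3 kb (19.1%) of the stretch in replicate 1 and 34.7 kb (18.3%) in replicate 2, a mean of 18.7% ± 0.59 (SD, n = 2). The whole X chromosome was covered to 4.91% ± 0.38 (SD, n = 2). The locus was 3.82 ± 0.18 times as densely covered as the chromosome it lies on (SD, n = 2). In the combined list 75.7 kb (39.8%) of the locus was covered, against 14.3% of X. By number, there were 7.37 (replicate 1), 6.84 (replicate 2) and 17.4 (combined list) clusters per 100 kb, against 2.28, 2.07 and 7.38 on the whole X.

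**Figure D1:**
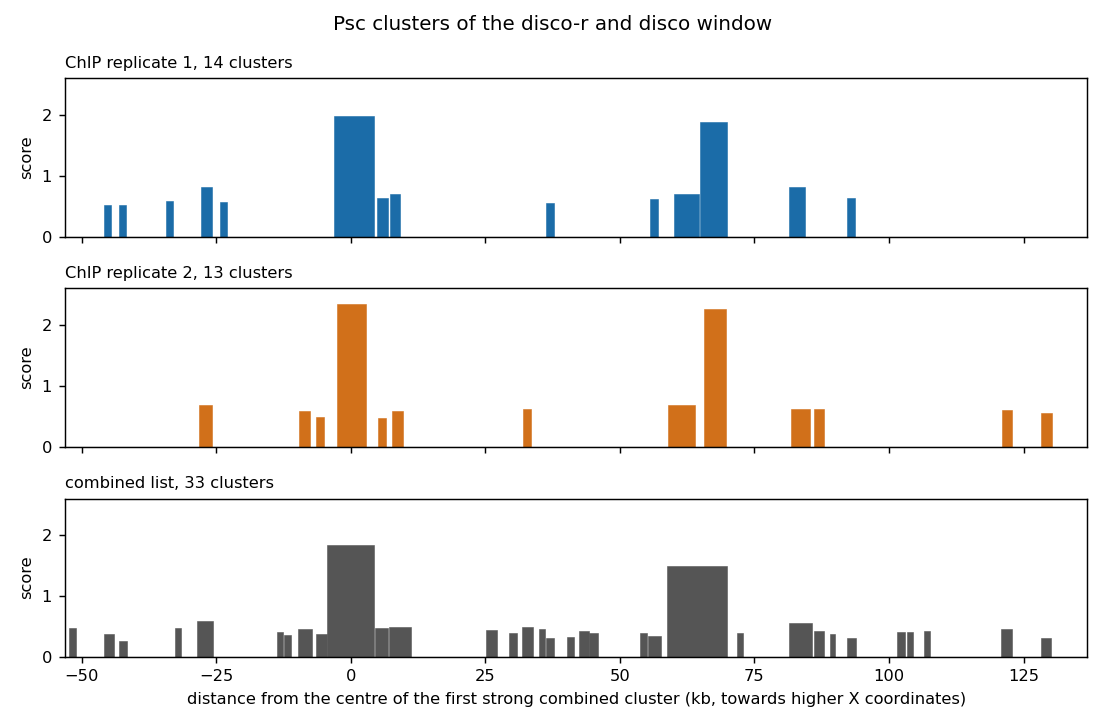
Psc clusters of the locus in the 3 deposited lists, drawn to scale. The x axis is the distance in kb from the centre of the first strong combined cluster, bar width is cluster width and bar height is the authors' enrichment score; in each list 2 bars stand above all others, at scores of 1.99 and 1.89 (replicate 1), 2.35 and 2.26 (replicate 2), and 1.83 and 1.50 (combined list).

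The score is the authors' enrichment value for each cluster, for which the lists name no unit. Scores and their medians are compared here only within a list, and the read numbers behind them are unknown. The first of the 2 strong sites was a cluster from 16040070 to 16047547 in replicate 1, 7478 bp wide with a score of 1.99. In replicate 2 it ran from 16040493 to 16046013, 5521 bp wide with a score of 2.35. These clusters ranked 18 of 2628 and 7 of 2432 in their lists, and 4 of 511 and 3 of 465 among the clusters of X. The combined list had a cluster of 8823 bp there, from 16038721 to 16047543, with a score of 1.83 and rank 62 of 8687. In all 3 lists this was the highest-scoring cluster of the locus, and the replicate 2 cluster lay wholly inside that of replicate 1.

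The second strong site lay towards higher coordinates. Its cluster ran from 16107989 to 16113097 in replicate 1 (5109 bp, score 1.89) and from 16108737 to 16112891 in replicate 2 (4155 bp, score 2.26). The ranks were 26 and 11 in the whole lists, and 8 and 5 on X. Here too the replicate 2 cluster lay wholly inside the replicate 1 cluster. Midpoints of the first and the second strong cluster were 66.7 kb apart in replicate 1 and 67.6 kb in replicate 2, a mean of 67.1 ± 0.58 kb (SD, n = 2).

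A second, wide but weaker cluster adjoined the second strong site on its low-coordinate side in both replicates. It spanned 4720 bp (16103183 to 16107902) with a score of 0.697 in replicate 1, and 4947 bp (16102097 to 16107043) with a score of 0.687 in replicate 2. By width it exceeded 91.7% and 93.6% of the clusters of its list, and by score 73.7% and 77.2%. The gap to the strong cluster was 86 bp in replicate 1 and 1693 bp in replicate 2. The combined list held both parts as a single cluster of 11172 bp, from 16101874 to 16113045, with a score of 1.50 and rank 95.

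**Figure D2:**
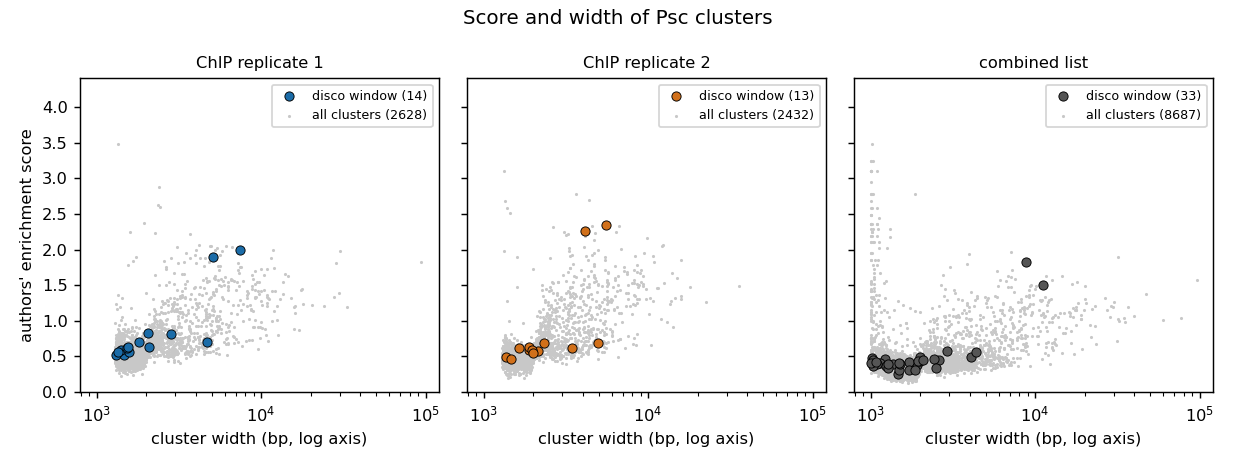
Cluster width (bp, log axis) against the authors' enrichment score for the clusters of the locus (large points) and all clusters of the same list (small grey points). In each list 2 clusters of the locus are both wide and high, and the others lie between 0.520 and 0.823 (replicate 1), 0.466 and 0.690 (replicate 2), and 0.252 and 0.580 (combined list).

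Between these sites and the rest of the locus there was a wide step in score. The third-highest cluster of the locus ranked 429 in replicate 1 (score 0.823) and 548 in replicate 2 (score 0.690), and the other 12 and 11 clusters had median scores of 0.622 and 0.596. Those medians, which leave out the 2 strong clusters, were somewhat below the medians of all X clusters, 0.659 and 0.603. They were above the medians of the whole lists, 0.569 and 0.524. Of the clusters of the locus, 2 of 14 in replicate 1 and 2 of 13 in replicate 2 were in the upper 10% of their list by score (9.97% and 9.99% of all clusters). By width it was 3 of 14 and 3 of 13 (9.97% and 9.95% of all clusters): both strong clusters and the wide neighbour of the second. The choice of the stretch used these scores, so the counts are descriptions.

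It was then counted how often clusters of such rank have another near them. In replicate 1, 26 clusters scored at least as high as the lower of the 2 strong clusters of the locus, and 4 of them, all on X, had another of the 26 within the distance that separates the sites of the locus. In replicate 2 there were 11 such clusters, and none met this besides the 2 of the locus. In the combined list it was 30 of 95, among them 6 of the 14 on X. The 2 strong clusters of the locus set both the score and the distance, so in every list they met this count by definition. This count was chosen after the values were seen and was not tested.

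Agreement between the replicates was then examined cluster by cluster. In replicate 1, 7 of 14 clusters (50.0%, exact Clopper-Pearson 95% interval 23.0 to 77.0) overlapped a replicate 2 cluster by at least 1 bp, against 51.4% of all replicate 1 clusters. In replicate 2, 7 of 13 (53.8%, 25.1 to 80.8) overlapped a replicate 1 cluster, against 58.7% of all. The intervals cover counting error only, and both shares lie near those of the whole lists. Base pairs covered by both lists made up 20777 of the 50297 covered by either (41.3%), against 39.9% on X and 43.3% over the major chromosome arms.

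The 7 shared regions comprised both strong sites, the wide neighbour of the second, and 4 weaker ones. On the low-coordinate side of the first strong site, 16015360 to 16017421 scored 0.823 in replicate 1 and its partner, 16015032 to 16017362, scored 0.690 in replicate 2. Just beyond the high end of the first strong site came a pair of clusters in both lists. The nearer scored 0.634 in replicate 1 (16048038 to 16050126) and 0.466 in replicate 2 (16048147 to 16049611), and was the lowest-scoring replicate 2 cluster of the locus. The farther scored 0.697 (16050388 to 16052208) and 0.584 (16050869 to 16052755). On the high side of the second strong site, a cluster of 2853 bp in replicate 1 (16124596 to 16127448) scored 0.820, and one of 3434 bp in replicate 2 (16125017 to 16128450) scored 0.622. With the wide neighbour of the second site counted, the shared weaker clusters nearest to the strong sites thus lay on the sides that face each other.

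**Figure D3:**
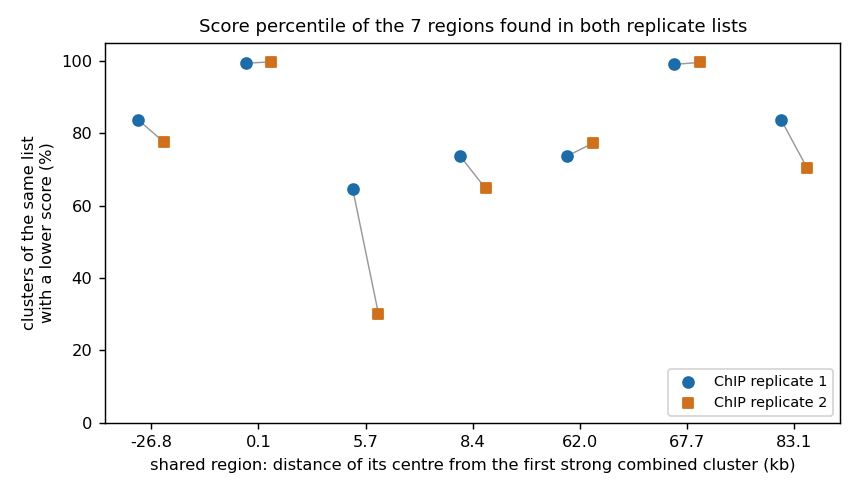
Score percentile (percent of clusters of the same list with a lower score) of the 7 regions of the locus found in both replicate lists, placed by the distance of the centre of the shared part from the centre of the first strong combined cluster (kb, not to scale); circles are replicate 1 and squares replicate 2. Both strong sites exceed 99.0% of their lists in each replicate, and the widest spread is in the region just beyond the first site, at 64.6% in replicate 1 and 30.1% in replicate 2.

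In score percentile, the strong sites differed least between the replicates. The first exceeded 99.3% and 99.7% of the clusters of replicates 1 and 2, and the second 99.0% and 99.5%. These sites were picked as the highest clusters, and percentiles at the top of a list have little room to differ, so this is no measure of better agreement. Their ranks in replicates 1 and 2 were 18 and 7 for the first, and 26 and 11 for the second. Among the weaker shared regions the percentiles ran between 64.6% and 83.6% in replicate 1 and between 30.1% and 77.5% in replicate 2. Over the 14 cluster edges of the 7 pairs the median displacement between replicates was 498 bp, against 216 bp over the 2588 edges of all 1294 pairs. The largest displacement in the locus, 1534 bp, was at the high end of the first strong site. The shared part of a pair filled at least 70.1% of both of its clusters. Taking for each pair the cluster filled less, the median share was 73.8% over the 7 pairs, against 79.2% over all 1294 pairs.

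None of the 13 clusters found in 1 replicate only was in the upper 10% of its list by score or width. Of all clusters, 9.97% (replicate 1) and 9.99% (replicate 2) were so by score, and 9.97% and 9.95% by width. For all unshared clusters the share is not given here, so neither this count nor the ranges below mark out the locus. The 7 unshared clusters of replicate 1 in the locus were 1319 to 1577 bp wide with scores of 0.520 to 0.631. The 7 shared ones were 1821 to 7478 bp wide with scores of 0.634 to 1.99. These sets did not overlap in either measure. In replicate 2 the 6 unshared clusters were 1372 to 2144 bp wide with scores of 0.495 to 0.626, and the shared ones were 1465 to 5521 bp wide with scores of 0.466 to 2.35, so these sets did overlap. These 6 exceeded 40.1% to 70.8% of the replicate 2 list by score, and their median width, 1921 bp, was above the list median of 1821 bp.

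By position, 4 of the 7 unshared replicate 1 clusters lay on the low side of the first strong site. The outermost 2, at 15997212 to 15998676 (score 0.526) and 16000070 to 16001388 (score 0.520), were 16355 bp and 13643 bp from the nearest replicate 2 cluster. The next, at 16008791 to 16010198 (score 0.593), and that at 16018834 to 16020184 (score 0.564) were 4833 bp and 1471 bp away. Between the strong sites were those at 16079339 to 16080915 (score 0.560) and 16098726 to 16100252 (score 0.613), and on the high side that at 16135294 to 16136850 (score 0.631). These last 3 lay 2647, 1844 and 4191 bp from a replicate 2 cluster.

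Of the 6 unshared replicate 2 clusters, 2 lay directly before the first strong site, at 16033511 to 16035654 (score 0.583) and 16036768 to 16038139 (score 0.495). A cluster between the strong sites, 16075049 to 16076691, scored 0.619. On the high side were 16129219 to 16131102 (score 0.626) and, farther out, 16164058 to 16166015 (score 0.596) and 16171356 to 16173352 (score 0.550). The outer 2 were 27207 bp and 34505 bp from the nearest replicate 1 cluster. Replicate 1 therefore reached farther on the low side and replicate 2 on the high side: the first and last clusters were at 15997212 and 16136850 in replicate 1, and at 16015032 and 16173352 in replicate 2. The lists hold only clusters above the submitters' threshold, so the signal of either replicate at the places missing from its list is unknown.

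The combined list filled in much of the ground between these clusters. All 13 replicate 2 clusters of the locus overlapped it (97.4% of all replicate 2 clusters did), as did 12 of 14 replicate 1 clusters (96.3% of all). The exceptions were the replicate 1 clusters at 16008791 and 16018834, with 302 bp and 1271 bp to the nearest combined cluster. Of the 33 combined clusters, 6 met both replicate lists (18.2%, against 13.5% of all combined clusters), 5 replicate 1 only (15.2%, against 13.0%), 6 replicate 2 only (18.2%, against 10.1%) and 16 neither (48.5%, against 63.5%). The exact 95% intervals of these shares were 6.98 to 35.5, 5.11 to 31.9, 6.98 to 35.5 and 30.8 to 66.5. They cover counting error only and take neighbouring clusters of 1 chosen stretch as independent. Whether the locus differs from the whole list in these shares was therefore not tested.

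The 6 combined clusters backed by both replicates had a median width of 4225 bp and scores of 0.470 to 1.83, and they made up 44.6% of the combined base pairs of the locus. The 4 combined clusters of the locus in the upper 10% of that list by score (9.99% of all) were all among them. How often this holds for high clusters of the whole combined list is not given here. These 4 were both strong sites, 16014641 to 16017562 on the low side (score 0.580) and 16124525 to 16128919 on the high side (score 0.558). The 16 combined clusters met by neither replicate had a median width of 1231.5 bp and scores of 0.333 to 0.477. Among them 11 were narrower than 1301 bp, the narrowest cluster of either replicate list, and 7 lay between the strong sites. Such widths are common: 37.8% of all combined clusters, met by a replicate or not, were narrower than 1281 bp. Clusters met by a single replicate scored 0.252 to 0.381 where that was replicate 1 and 0.309 to 0.491 where it was replicate 2.

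Cut at the strong sites, the locus was covered unevenly. Between the combined clusters of the strong sites lay 54.3 kb, of which clusters covered 12.9% (replicate 1), 9.19% (replicate 2) and 41.7% (combined list). The 48.7 kb on the low side were covered to 15.6%, 12.0% and 31.5%, and the 67.0 kb on the high side to 6.66%, 13.8% and 26.4%. All of these values were above the coverage of the whole X in the same list. The longest stretch within the locus with no cluster was 27.1 kb in replicate 1 (16052209 to 16079338), between the strong sites. In replicate 2 it was 33.0 kb (16131103 to 16164057), on the high side, and in the combined list it was 14.0 kb (16054276 to 16068261). Joined where gaps were at most 10 kb, the combined clusters formed 4 groups of 5, 7, 19 and 2 clusters. The group of 7 held the first strong site in 24.9 kb, and the group of 19 held the second in 82.5 kb.

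The low edge of the locus bordered on a long stretch with no cluster in all 3 lists. The first clusters inside it lay 7.21 kb from it in replicate 1 (score 0.526), 25.03 kb in replicate 2 (score 0.690), and 0.85 kb for the combined list (score 0.465). Outside it, the nearest clusters were 283.0 kb away in replicate 1 (score 0.535) and 283.1 kb away in replicate 2 (score 0.516). For the combined list this distance was 143.6 kb (score 0.373). The cluster-free stretch there measured 290.2 kb, 308.1 kb and 144.4 kb, and ranked 10 of 510, 9 of 464 and 4 of 1654 among the gaps between neighbouring clusters of X, whose medians were 11.5, 12.1 and 4.77 kb. At the high edge the lists differed. The last clusters inside it lay 43.15 kb from it in replicate 1 (score 0.631), 6.65 kb in replicate 2 (score 0.550), and 6.76 kb for the combined list (score 0.309). Outside it the nearest cluster was 161.9 kb away in replicate 1 (score 0.630), but 9.87 kb away in replicate 2 (score 0.401). For the combined list it was 9.68 kb (score 0.307). The cluster-free stretch across this edge measured 205.1 kb in replicate 1, rank 19 of 510 on X, and 16.5 kb in replicate 2, rank 206 of 464. In the combined list it measured 16.4 kb, rank 332 of 1654.

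Set against 116 other windows of the same length along X, the locus was among the more covered. In each replicate list 8 windows were covered more, so that the locus exceeded 93.1% of them; in the combined list 6 were covered more, and it exceeded 94.8%. The median X window was covered to 2.63% (replicate 1), 2.14% (replicate 2) and 10.2% (combined list), and the most covered to 29.8%, 29.2% and 53.6%. Among 623 windows of the major arms, 41 (replicate 1), 38 (replicate 2) and 33 (combined list) exceeded the locus. These ranks describe a window that was chosen for its clusters.

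**Figure D4:**
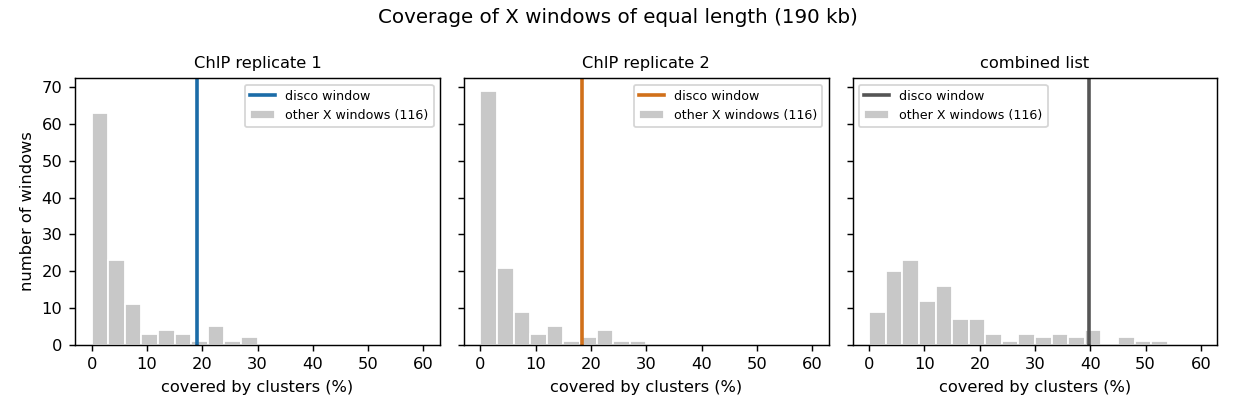
Percent of each X window covered by Psc clusters, for the locus (coloured line) and the 116 other windows of 190 kb (grey histogram, number of windows). The locus lies at 19.1% (replicate 1), 18.3% (replicate 2) and 39.8% (combined list), to the right of most windows but below the most covered.

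The locus was set beside the 2 longest Psc domains of X. These domains, runs of combined clusters with gaps of at most 10 kb, spanned 272.8 kb (8451871 to 8724693) and 176.5 kb (4248820 to 4425322). Replicate clusters covered 18.7% ± 0.59 of the locus, 31.8% ± 2.2 of the longest domain and 37.4% ± 2.5 of the next (SD, n = 2 each). They numbered 7.11 ± 0.37 per 100 kb in the locus, against 10.1 ± 0.26 and 15.0 ± 0.40 in the domains (SD, n = 2 each). The domains hold by definition no gap over 10 kb, while the locus is a fixed stretch with such gaps, so lower coverage and density of the locus follow in part from how the regions were drawn. Taken by the same rule, the groups around the first and the second strong site held 28.1 and 23.0 combined clusters per 100 kb. The outer groups of the locus held 18.7 (low side) and 21.6 (high side), and the domains 15.0 and 22.1. These densities are not alike in kind, since a group starts and ends on a cluster, which by construction raises the density of short ones. The high-side group was only 2 clusters in 9.27 kb, and that of the first strong site 7 clusters in 24.9 kb. Number is not coverage, since a wide cluster counts once, and the longest domain holds a combined cluster of 27244 bp. Combined clusters covered 59.4% and 67.4% of the domains, and the coverage of the groups is not given here. None of this was tested, because the regions were chosen by their clusters.

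The highest cluster of the locus scored 1.99 (replicate 1) and 2.35 (replicate 2), above those of the longest domain (1.76 and 2.33) and of the next (1.61 and 1.82). At the third-highest cluster the order turned, but the domains hold more clusters than the locus, which favours them at an equal order. The median score of the locus was 0.633 (replicate 1) and 0.619 (replicate 2). It was 0.795 and 0.708 in the longest domain, and 0.627 and 0.653 in the next. The third-highest cluster of the locus exceeded 83.6% of replicate 1 and 77.5% of replicate 2, against 96.7% and 97.0% in the longest domain and 88.6% and 94.5% in the next. In the upper 10% by score were 2 of 14 (14.3%) and 2 of 13 (15.4%) clusters of the locus in replicates 1 and 2, against 7 of 27 (25.9%) and 6 of 28 (21.4%) of the longest domain and 2 of 26 (7.69%) and 4 of 27 (14.8%) of the next. In replicate 1 the second domain also had 2 high clusters, above 97.5% and 97.4% of the list, and then a drop to 88.6%.

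**Figure D5:**
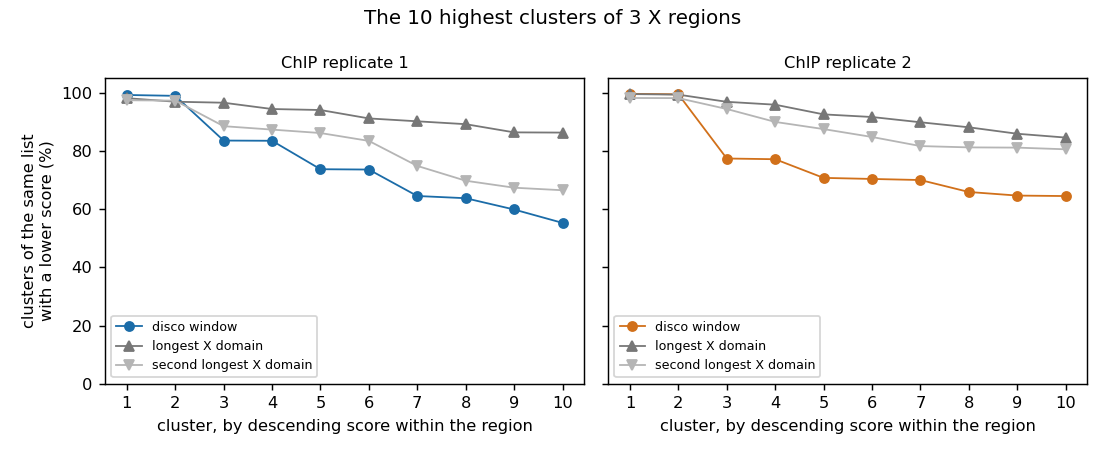
Score percentile (percent of clusters of the same list with a lower score) of the 10 highest clusters of the locus and of the 2 longest X domains, ordered by descending score within each region, in replicate 1 (left) and replicate 2 (right). The domains hold more clusters than the locus, so the 10 highest are a smaller part of them. The line of the locus starts as high as the others and drops after its 2 strong clusters, to 83.6% and 77.5%, while the longest domain stays at or above 86.4% (replicate 1) and 84.7% (replicate 2); the second domain also drops after 2 clusters in replicate 1, to 88.6%, and reaches 66.6% there.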

How the data were processed

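Values are those of 3 deposited lists, 1 for each Psc ChIP sample and 1 combined list; no separate values of the inputs were used. Reads were processed with Bowtie 0.12.7, per the submitters' processing notes, and coordinates are on FlyBase release 5, per the file headers. Which caller and cut-offs gave the clusters, and how the replicates were pooled, is not given in the sources used here. Every cluster has a score from the authors, deposited without a unit. It served only for ranks, percentiles, cut-offs and comparisons of scores and their medians inside a list, and the read depth behind it is unknown. Cluster starts and ends were used as deposited, 1-based.

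The locus, its members and all comparisons were chosen with earlier results of these data known, and no test was run. Sharing required an overlap of at least 1 bp. Pairs were clusters that were each other's longest overlap. Percentiles are the percent of clusters of a list with a lower score. Comparison windows were tiled without overlap in step with the locus on X and from the first base of the other major arms. Given with full values were the clusters in the upper 10% of their list by score or width and those found in 1 replicate only; the other shared clusters, the region edges and the 2 longest X domains were added after their values were seen. Interval functions were tested on simulated data and against bedtools 2.31.1. Python 3.11.15, numpy 2.4.6, pandas 2.3.3, scipy 1.17.1 and matplotlib 3.10.9 were used. No genome of release 5 was used here, so motifs and sequences of the clusters and promoters were not analysed.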

Additional observations from a re-analysis of the deposited data

How the results depend on the processing

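Besides leaving out a replicate, 14 alternatives to 7 results were run, and 10 moved the value by no more than the spread between replicates (for edges, the spread over the 14 edges) or, for shares, stayed within the 95% interval. The intervals of the shares, 23.0 to 77.0 and 25.1 to 80.8, are wide, so staying within them says little of stability. With 2 replicates, leaving out either always moves a mean by less than their SD, so the ranges given for it say nothing of stability. The mean coverage of the locus by the replicate lists, 18.7%, became 16.5% with only the clusters above the median score of each list and 15.1% with the stretch widened by 25 kb on each side, which adds sequence with few clusters. It was 18.3% to 19.1% with 1 replicate left out. The mean percentile of the second strong site, 99.3%, was 98.7% among X clusters alone, and 99.0% to 99.5% with 1 replicate left out; the first site ranged from 99.3% to 99.7%. The share of X windows covered less, 93.1%, was 94.3% with windows started every 10 kb, and 93.1% with either replicate left out; since both replicates gave the same share, any change exceeds their spread. The share of replicate 1 clusters found in replicate 2 was 36.4% (4 of 11) when clusters within 1000 bp were merged, because merging joined neighbouring shared clusters, and 60.0% (6 of 10) among clusters above the median score. No paired analysis was possible because only the ChIP lists carry values, already made against their inputs. The alternative for promoter motifs was not run, since no sequence was used here. Unknown read numbers and separate scaling of the lists limit all scores.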
